A study of Mus musculus with 62 samples.

Results

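The genes of voltage-gated and potassium channels were followed through the long-RNA libraries of a study of amyloid pathology in the mouse hippocampus. A gene was taken when its name began with Kcn, with Scn, a number and a or b, or with Cacna1 or Cacna2, and when its mean TPM (transcript abundance per length and library) over the mouse libraries was at least 1. Of 127 matching names 90 met these terms, among 53975 gene identifiers in the files. Another 32 fell below the minimum, 2 were antisense names ending in os, and Kcnj10, Kcne2 and Scn4b were left out by name. The genes were thus chosen by their mean TPM in mouse, so their being expressed there is not a result. Just inside the minimum lay, by mean TPM, Kcnk6 at 1.08, Scn7a at 1.25, Kcnu1 at 1.31 and Kcnrg at 1.43. Just outside it lay Cacna2d4 at 0.817, Kcnh4 at 0.675, Kcnj8 at 0.656, Kcna5 at 0.639 and Kcnj14 at 0.497.

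The mice carried the App allele NL-G-F (called APP below) or were C57BL/6J mice (called WT), and both hippocampi of a mouse were pooled into 1 RNA sample. At 3 months the series held 3 APP and 2 WT mice, and at both 6 and 12 months 3 of either genotype. As background, NL-G-F is a knock-in allele with a humanised amyloid beta sequence and 3 sets of familial Alzheimer's disease mutations, expressed from the App promoter itself. The labels state neither sex nor zygosity. HT-22 cells, an immortalised line derived from mouse hippocampus, were first exposed for 24 h to an LNA (locked nucleic acid oligonucleotide), either anti-Hsf1 at 150 nM or scramble, for which the labels list 50 uM. They were then given the amyloid beta peptide 1-42 (Ab42) or its reverse sequence, each at 30 uM. Either peptide has 4 libraries with scramble and 3 with anti-Hsf1.

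Voltage-gated channels turn a change in membrane potential into an ion current. Sodium channels of the Nav family carry the rising phase of the action potential, voltage-gated potassium channels of the Kv family repolarise the membrane and set firing rate, and calcium channels of the Cav family couple depolarisation to transmitter release and gene regulation. Inward rectifiers (Kir) and tandem pore domain channels (K2P) hold the resting potential, and calcium- and sodium-activated channels link spiking to afterhyperpolarisation. The pore is formed by an alpha subunit, and auxiliary subunits (Kvbeta, KChIP, BK beta, Nav beta, Cav alpha2delta) set trafficking and gating. In the hippocampus the mix of these genes differs between pyramidal cells, granule cells and interneurons. The 90 genes comprised 32 Kv pore subunits, 9 Kir, 9 K2P and 10 potassium channel auxiliary subunits. Another 7 were grouped by name as calcium- and sodium-activated channels, where Kcnu1 was placed by its name alone. There were also 6 Nav pore and 3 Nav beta subunits, and 8 Cav alpha1 and 3 Cav alpha2delta subunits. The last 3 were other names (Kcnq1ot1, Kcnmb4os2 and Kcnrg, none of which encodes a channel subunit).

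The promoters of 4 genes whose levels differed between groups are given here. Scn1a, Kcnh5 and Kcnk1 are 3 of the 6 channel genes reported below as lower at 12 than at 3 months in APP mice. Cacna1c differed between genotypes at 6 months. A shared control of these genes was not tested. Each runs 5′ to 3′ from 250 bases before to 50 bases after a RefSeq transcript start on GRCm38.p6, with CG dinucleotides in capitals.
Scn1a, chr2:66440788-66441087, minus strand: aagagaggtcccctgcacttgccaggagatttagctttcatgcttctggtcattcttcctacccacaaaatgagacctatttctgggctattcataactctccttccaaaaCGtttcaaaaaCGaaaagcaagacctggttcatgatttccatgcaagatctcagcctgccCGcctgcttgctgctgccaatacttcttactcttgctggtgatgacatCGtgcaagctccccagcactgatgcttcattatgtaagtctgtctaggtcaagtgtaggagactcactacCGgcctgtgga
Kcnh5, chr12:75177283-75177582, minus strand: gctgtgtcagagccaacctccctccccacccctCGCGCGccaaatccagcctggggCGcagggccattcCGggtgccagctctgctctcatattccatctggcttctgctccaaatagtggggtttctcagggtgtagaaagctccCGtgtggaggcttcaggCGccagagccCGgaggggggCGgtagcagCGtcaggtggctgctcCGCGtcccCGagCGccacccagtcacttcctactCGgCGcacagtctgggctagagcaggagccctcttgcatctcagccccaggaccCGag
Kcnk1, chr8:125994852-125995151, plus strand: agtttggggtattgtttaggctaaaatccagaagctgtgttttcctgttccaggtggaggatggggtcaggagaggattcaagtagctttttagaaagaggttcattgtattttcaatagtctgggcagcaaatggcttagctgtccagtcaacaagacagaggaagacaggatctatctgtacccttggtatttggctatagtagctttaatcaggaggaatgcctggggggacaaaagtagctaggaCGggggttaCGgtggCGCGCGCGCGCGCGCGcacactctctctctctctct
Cacna1c, chr6:119196360-119196659, minus strand, the most upstream of 3 starts listed: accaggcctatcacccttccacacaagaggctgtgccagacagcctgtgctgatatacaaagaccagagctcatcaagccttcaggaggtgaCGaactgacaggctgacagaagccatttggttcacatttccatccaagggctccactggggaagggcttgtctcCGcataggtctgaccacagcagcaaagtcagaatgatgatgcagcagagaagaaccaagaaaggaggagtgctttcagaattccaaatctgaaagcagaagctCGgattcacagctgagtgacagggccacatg
The Kcnh5 window held 17 CG dinucleotides, that of Kcnk1 10, that of Scn1a 5 and that of Cacna1c 3. Windows were listed for 63 of the 90 genes, and these 91 windows held a median of 10 CG dinucleotides (quartiles 5 and 24), against 7 (quartiles 3 and 20) over all 32851 windows of the table. The letters TATAAA, read on both strands, stood in 6.59% of the channel gene windows and in 13.6% of all windows, and in none of the 4 shown. A match of letters is a description of the window and not of a bound factor.

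Values are TPM divided by a size factor per library (median of ratios within mouse or within HT-22), called scaled TPM. TPM is per transcript length, so levels of different genes can be set side by side. Read counts per gene are not in the deposited tables. The most common ratio of Coverage to FPKM over genes, a measure of relative depth, was 1.42 to 3.04 in the mouse libraries and 0.724 to 2.60 in those of HT-22 cells. Differences were tested with limma on log2(scaled TPM + 1), a scale that understates changes of low genes, and genes with a p under 0.05 after Benjamini-Hochberg adjustment over all genes tested are termed called. In bulk tissue, fewer cells of a type and less RNA per cell cannot be told apart.

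Some libraries stood apart. The 5 CA1 markers summed to 69.4 to 168 and the 5 CA3 markers to 84.1 to 119 over the 17 mouse libraries, and the labelled tissue is hippocampus. The 6 thalamus markers (Tcf7l2, Prkcd, Lef1, Rora, Calb2, Plekhg1) summed to 496 in replicate 1 and 177 in replicate 2 of APP at 3 months and to 156 in replicate 1 of APP at 6 months, against 43.2 to 75.1 in the other 14 mouse libraries. The first of these libraries also held 199 of striatum markers, against 35.0 to 77.9 elsewhere, and 308 of the 6 excitatory neuron markers, against 886 to 1200 elsewhere. Xist was at 71.2 to 138 in all APP libraries and in both WT libraries of 3 months, and at 0.266 to 0.522 in WT of 6 and 12 months, where the Y-linked Ddx3y was at 18.6 to 28.3. Genotype and this pattern therefore cannot be told apart at 6 and 12 months, nor can age and this pattern in WT.

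**Figure D1:**
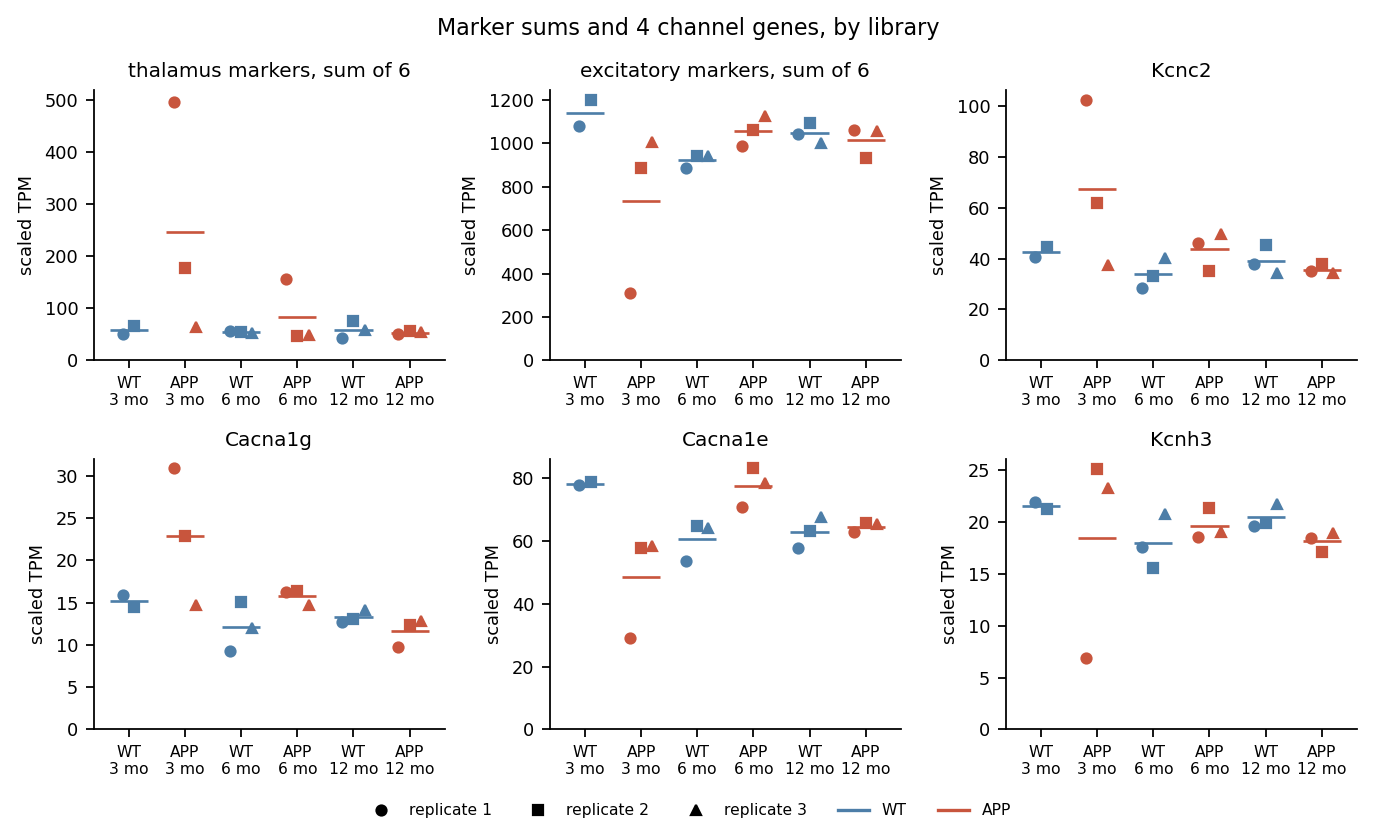
Scaled TPM (y axis, from 0) in each mouse library, by genotype and age (x axis), for the summed thalamus and excitatory neuron markers and for Kcnc2, Cacna1g, Cacna1e and Kcnh3. Points are libraries, shapes are replicate numbers and bars are group means. Replicate 1 of APP at 3 months is the highest library for the thalamus markers, Kcnc2 and Cacna1g and the lowest for the excitatory markers, Cacna1e and Kcnh3.

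The channel genes were often at an extreme in that library. Replicate 1 of APP at 3 months held the lowest value of 32 of the 90 channel genes and the highest of 19, which is 56.7% at 1 end or the other, against 26.7% of all 17840 genes tested. Kcnc2, the Kv3.2 subunit of fast-spiking cells, was at 102 in it, 61.9 in replicate 2 and 37.4 in replicate 3 of the same group, and at 28.6 to 49.7 in the other 14 libraries. Cacna1g, the T-type Cav3.1 subunit, was at 30.9, 22.9 and 14.7 in these 3 libraries and at 9.26 to 16.3 elsewhere. In the same library Cacna1e (R-type Cav2.3) was at 29.1, against 53.5 to 83.4 in all others, and Kcnh3 (Kv12.2) at 6.88, against 15.6 to 25.1. The order of the 3 APP libraries in thalamus markers was also their order in Kcnc2 and Cacna1g, and a link was not tested. The changes named below that involve APP at 3 months are therefore also given without replicates 1 and 2. The 1 APP library then left at that age is assumed to vary like the libraries of the other groups.

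Among Kv pore subunits Kcnc2 had a mean of 43.8 scaled TPM over the 17 mouse libraries, Kcna1 of 42.9 and Kcnq3, a subunit of the M current, of 41.0. Kcnd2, the A-type Kv4.2 subunit of dendrites, ranged from 31.4 to 40.4 over all 17 libraries. Kcna2 (Kv1.2) ranged from 11.6 to 50.1, Kcna4 (Kv1.4) from 13.4 to 25.5, Kcnc1 (Kv3.1) from 23.3 to 52.8, Kcnd3 (Kv4.3) from 6.66 to 17.3 and Kcnh1 (Kv10.1, an ether-a-go-go channel) from 6.06 to 13.96. For some of these a single library set the range. For Kcna2 and the KChIP gene Kcnip4 replicate 1 of WT at 3 months was the lowest of the 17 libraries, at 11.6 and 7.84, where replicate 2 was at 31.8 and 27.3.

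Auxiliary and sodium channel genes were among the most abundant. Kcnab2, a Kvbeta subunit, had a mean of 146 scaled TPM. Kcnab1, another Kvbeta gene, ranged from 38.0 to 51.7, and Kcnip2, which encodes the KChIP2 partner of Kv4 channels, from 20.3 to 41.6. The pore gene Scn2a (Nav1.2 of excitatory axons) had a mean of 110 and ranged from 84.0 to 135, and Scn8a (Nav1.6 of the axon initial segment) ranged from 40.1 to 68.6. Scn3a, the mainly fetal Nav1.3, stayed within 14.9 to 20.7. Scn2b ranged from 53.8 to 82.7, and Scn3b from 16.9 to 59.0 with its highest value in replicate 1 of WT at 3 months. Among the 10 genes with the highest means were also Cacna1e (64.7), Cacna2d1 (59.6), Kcnma1 (55.3, the BK channel), Scn8a (54.1) and Cacna1a (48.8, the P/Q-type channel of nerve terminals). Together 53 of the 90 genes had a mean scaled TPM of at least 10, and all 90 were above 0 in every mouse library.

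Highest gene means in the remaining families were 32.4 scaled TPM for Kir and 34.1 for K2P. They were 55.3 for calcium- and sodium-activated, 64.7 for Cav alpha1 and 59.6 for Cav alpha2delta genes. Among Kir genes, Kcnj6 (GIRK2) ranged from 17.1 to 40.5 and Kcnj3 (GIRK1) from 10.6 to 18.1. Kcnj13 (Kir7.1), known from choroid plexus, ranged from 3.38 to 34.2, and its extremes lay in the same libraries as those of the 10 choroid plexus markers, whose sum was 109 in replicate 2 of APP at 6 months and 3253 in replicate 1 of APP at 3 months. Among calcium channels, Cacna1b (N-type) ranged from 16.0 to 31.0, Cacna1h (T-type Cav3.2) from 12.7 to 33.8, Cacna2d2 from 4.56 to 17.9 and Cacna2d3 from 26.7 to 42.0. Kcnn2, an SK channel of the afterhyperpolarisation, ranged from 16.5 to 46.1, Kcnt1 (the sodium-activated Slack channel) from 5.40 to 16.0 and the TREK1 gene Kcnk2 from 12.6 to 22.1. For 8 genes at least 10% of the exon bases are shared with another annotated gene, among them Kcnj13 (49.1%, with Gigyf2) and Kcna6 (39.6%, with Gm26673), each on the opposite strand. The counting is not stated to use strand, so reads of such pairs cannot be told apart.

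At 3 months, before plaques in this model per the series' design text, Scn1a and Kcnh5 were higher in APP than in WT. In all, 3 of the 90 channel genes were called, 2 higher and 1 lower, against 0.297% of all genes tested (0.123% higher and 0.174% lower). Scn1a (ENSMUSG00000064329, GRCm38 chromosome 2, 66270778 to 66440840) encodes Nav1.1, the main sodium channel of parvalbumin interneurons. It was at 63.9, 63.5 and 48.3 scaled TPM in the 3 APP libraries and at 25.2 and 25.8 in the 2 WT libraries. All 3 APP libraries of 3 months lay above every other mouse library, of which the 12 at 6 and 12 months ran from 27.2 to 34.5. The log2 change was 1.16 ± 0.13 (SE), with an adjusted p of 0.00297 by limma. Replicate 3 was the lowest of the 3 for Scn1a, as it was for the thalamus markers, and a link was not tested. The thalamus markers of replicate 3 summed to 64.3, within the 50.7 to 65.7 of the 2 WT libraries. On most other marker lists it lay outside the range of these 2. Its oligodendrocyte markers summed to 2224, against 1480 to 1547, and its dentate granule cell markers to 40.4, against 61.9 to 78.5. With replicates 1 and 2 left out the log2 change was 0.90 and the adjusted p 0.0612 in limma, with 1 APP library against 2 WT libraries.

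Kcnh5 (ENSMUSG00000034402, chromosome 12, 74897220 to 75177332), the ether-a-go-go channel Kv10.2, showed the same pattern at a lower level. It was at 13.6, 26.1 and 19.1 in APP and at 5.09 and 6.04 in WT at 3 months. The other 12 libraries lay between 5.19 and 8.24, so that again only the APP group of 3 months stood above the rest. The log2 change was 1.61 ± 0.22 (SE), adjusted p 0.0139 by limma. Replicate 1 was the lowest of the 3 for Kcnh5, and the part of any marker list in this order was not tested. Without replicates 1 and 2 the log2 change was 1.62 and the adjusted p 0.0382 in limma, where the spread comes from the other groups since a single APP library is left. With 1 of the 2 WT libraries left out the adjusted p was 0.0819 or 0.0530, above the threshold, and that of Scn1a 0.0249 or 0.0258.

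**Figure D2:**
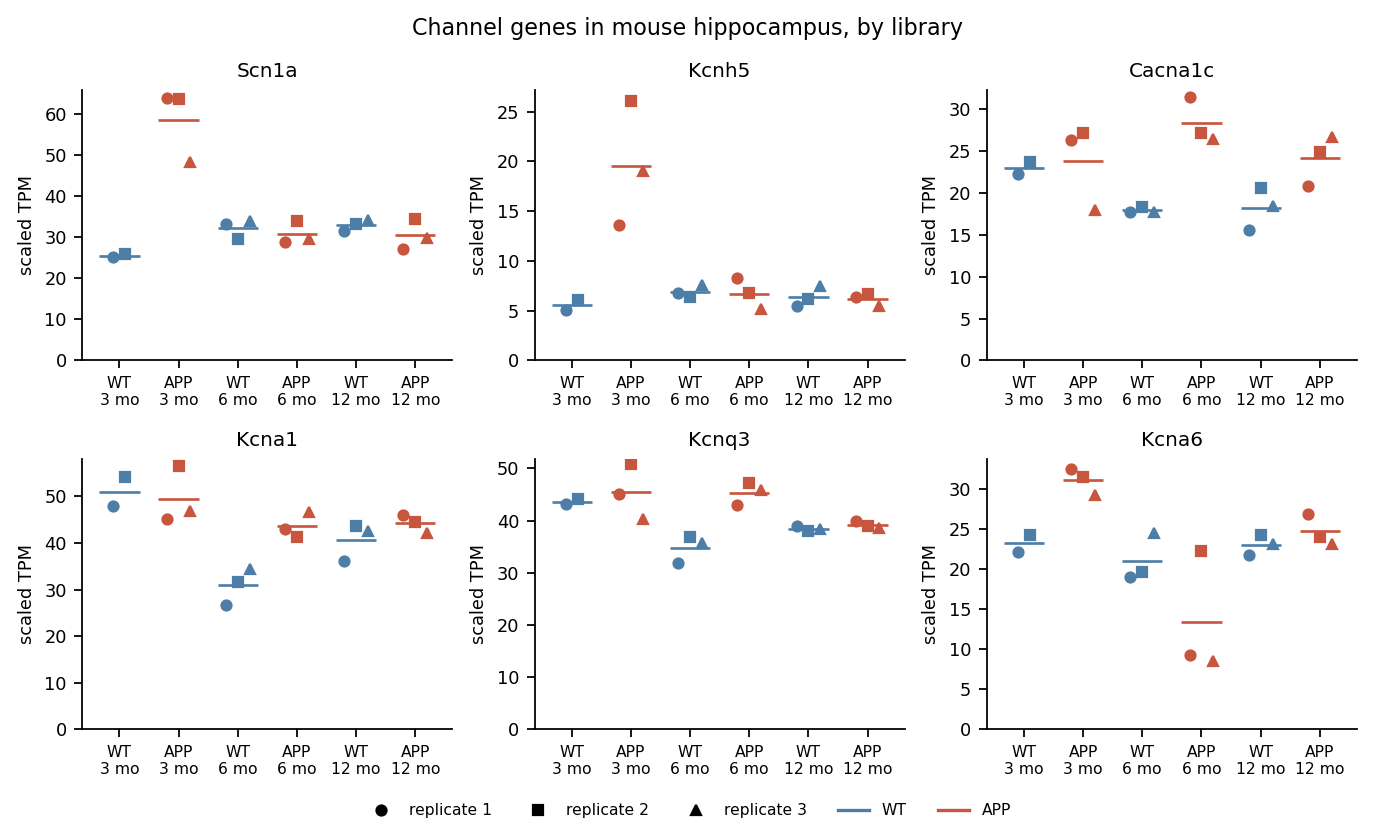
Scaled TPM (y axis, from 0) of Scn1a, Kcnh5, Cacna1c, Kcna1, Kcnq3 and Kcna6 in each of the 17 mouse libraries, by genotype and age (x axis). Points are libraries, shapes are replicate numbers and bars are group means. The 3 APP libraries of 3 months lie above all others for Scn1a and Kcnh5.

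The other 87 channel genes were not called at 3 months. Of the 90, 44 had a log2 change above 0 and 46 below, with a median of -0.01 against 0.01 over all genes tested. The unadjusted p by limma was under 0.05 for 24 of the 90, against 2364 of all 17840 genes tested. Values did not overlap between the 2 groups for 29 of the 90 genes, as for 27.1% of all genes tested. Next after the called genes came Kcng1, a silent Kv subunit (log2 change -1.13, adjusted p 0.0958 by limma), Kcna2 (1.21, 0.0959), Kcnn2 (-0.81, 0.108) and Cacna1h (-0.83, 0.115). Without APP replicates 1 and 2 their changes were -0.62, 1.07, -0.30 and -0.95, none called. The change of Kcna2 was 0.52 without WT replicate 1 and 1.91 without WT replicate 2, and that of Kcnn2 -0.52 without APP replicate 1. None of the Kir, K2P, auxiliary, Nav beta or calcium channel genes was called by limma, where 14 of them had an unadjusted p under 0.05. Without APP replicate 3 there were 8 calls, and without WT replicate 1 there was 1. Cell type markers moved too. The thalamus markers had a change above 0 for 6 of 6 (median log2 change 1.63), the striatum markers for 7 of 7 (0.85), the oligodendrocyte markers for 8 of 8 (0.47) and the blood markers for 5 of 5 (1.14, 1 called higher). It was below 0 for all 6 excitatory neuron markers (median -0.79), all 6 dentate granule cell markers (-0.62) and all 5 CA1 markers (-0.85, 1 called lower). Of the 8 inhibitory neuron markers 4 were above 0 (median 0.09), and Pvalb, the parvalbumin gene, was called higher (1.15, adjusted p 0.0431 by limma). The 8 summed to 384 to 395 in APP and 325 to 356 in WT. The part of these lists in the channel gene values, Scn1a included, was not tested.

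At 6 months, the age of plaque appearance per the design text, 1 channel gene was called, higher in APP, against 1.43% of all genes tested, of which 0.387% were higher. It was Cacna1c (ENSMUSG00000051331, chromosome 6, 118587240 to 119196418), the L-type Cav1.2 subunit. The 3 APP libraries held 31.5, 27.2 and 26.5 scaled TPM and the 3 WT libraries 17.8, 18.4 and 17.7, so the groups did not overlap. The log2 change was 0.63 ± 0.15 (SE), adjusted p 0.0487 by limma. That call was lost in 17 of 27 alternatives, among them the loss of any 1 of the 6 libraries compared, with a log2 change of 0.55 to 0.67 when 1 was left out. At 12 months Cacna1c was at 20.9, 24.97 and 26.7 in APP and at 15.6, 20.6 and 18.4 in WT (log2 change 0.39, adjusted p 0.496 by limma). The deposited Coverage of Cacna1c was 0.941 to 2.54 over the mouse libraries, against 17.4 to 69.3 for Scn1a at a similar TPM. The most common ratio of Coverage to FPKM was shared by 46.7% to 48.6% of genes in a mouse library. What the low Coverage of Cacna1c says of its read support was not tested.

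More channel genes had a change above 0 than below it at 6 months. The 90 genes summed to 1772 to 1896 scaled TPM in WT at 6 months, against 2041 to 2201 in APP of that age. In WT the sum was 2143 to 2214 at 3 months and 2063 to 2072 at 12 months. In APP it was 1865 to 2369 and 1989 to 2067 at these 2 ages. The log2 change was above 0 in 63 of the 90 genes, with a median of 0.19 against a median of 0.00 over all genes tested. The unadjusted p by limma was under 0.05 for 15 of the 90, against 3010 of all 17840 genes tested. Groups did not overlap for 25 of the 90, as for 21.1% of all genes tested. All 8 Cav alpha1 genes had a change above 0 (0.15 to 0.63), as did 23 of 32 Kv pore, 7 of 9 Kir, 7 of 9 K2P, 5 of 7 calcium- and sodium-activated and 3 of 3 Nav beta genes. The potassium channel auxiliary subunits had 4 of 10 above 0 (median -0.04), the Nav pore genes 3 of 6 (0.06) and the Cav alpha2delta genes 1 of 3 (-0.01). Of the marker lists, the dentate granule cell markers were above 0 for 5 of 6 (median 0.50, 1 called higher) and the thalamus markers for 5 of 6 (0.38), while the CA1 markers were for 1 of 5 (-0.31), the choroid plexus markers for 0 of 10 (-0.96) and the blood markers for 0 of 5 (-0.62, 1 called lower). Their part in the channel gene changes was not tested. Kcna1 (Kv1.1 of axons) was at 43.0, 41.3 and 46.7 in APP and 26.7, 31.6 and 34.3 in WT (log2 change 0.49 ± 0.12 (SE), adjusted p 0.0505 by limma), and Kcnq3 followed at 0.37 (adjusted p 0.0564). These 2 genes missed the threshold narrowly, and in some alternatives they passed it.

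Kcna6 (Kv1.6) was at 9.33, 22.3 and 8.48 in APP at 6 months and at 19.1 to 32.5 in the other 14 libraries, so that 2 of the 3 APP libraries stood below all others. Its log2 change was -0.74 with an adjusted p of 0.123 by limma, and -1.15 (0.000494) with APP replicate 2 left out.

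Among the mouse comparisons scaling changed the count at 6 months most. On TPM as deposited the median change of all genes was 0.60 on the log2 scale, and protein-coding genes took 36.2% to 51.0% of TPM in APP and 26.6% to 28.5% in WT. On that scale 70 of the 90 channel genes were higher in APP, as were 57.6% of all genes, and Scn1a and Kcnh5, which had changes near 0 on scaled values, were called higher (0.63 and 0.57). In either direction 58% of all genes were called. The deposited scale gave 4 called channel genes at 3 months (0.398% of all genes), 0 at 12 months (0.639%), 1 with age in WT (0.118%), 4 with age in APP (1.6%) and 41 in the test of the genotype change across ages (33.1%).

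At 12 months no channel gene was called by limma, against 0.454% of all genes tested. The unadjusted p was under 0.05 for 6 of the 90, against 1246 of all 17840 genes tested. The median log2 change was -0.04 against 0.00 over all genes, with 38 genes above 0 and 52 below. Groups did not overlap for 15 of the 90, as for 15.5% of all genes. Scn1a was at 27.2, 34.5 and 29.8 in APP and 31.4, 33.2 and 34.1 in WT, and Kcnh5 at 6.33, 6.71 and 5.45 against 5.51, 6.15 and 7.49. Both genes thus overlapped between genotypes at 12 months. Kcnj2 (Kir2.1) had the smallest p, with 7.64, 8.78 and 6.93 in APP and 5.17, 4.56 and 5.60 in WT (log2 change 0.52, adjusted p 0.378 by limma). In data simulated from these libraries, limma recovered 67% of genes changed by a log2 of 1 and 96% of those changed by 2 in this comparison.

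**Figure D3:**
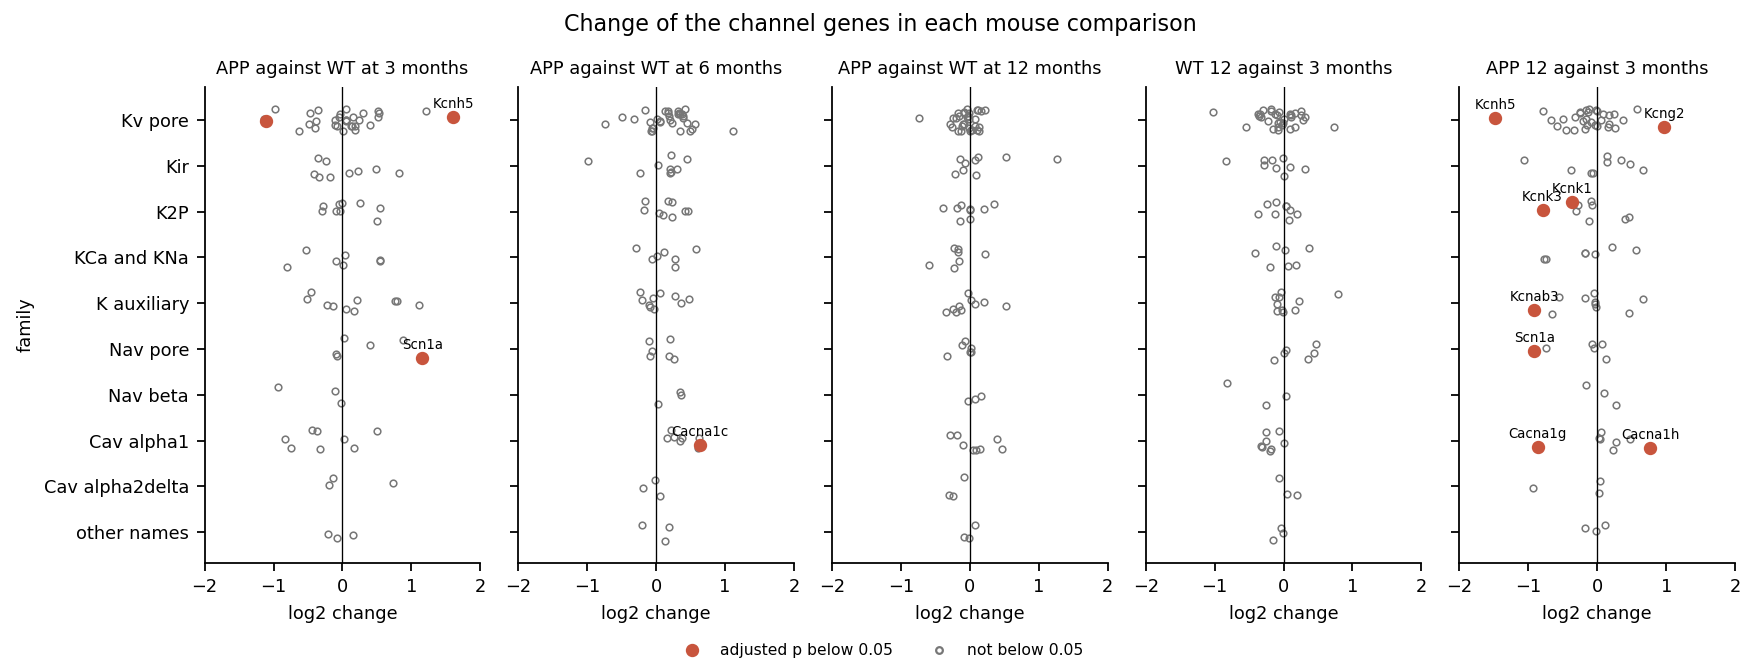
Log2 change on the log2(scaled TPM + 1) scale (x axis) of each of the 90 channel genes, by family (rows), in 5 mouse comparisons (panels). Filled points were called at an adjusted p below 0.05 by limma, with names where the text describes them, and open points were not. The comparison of 12 with 3 months in APP mice holds 8 called genes, and those at 12 months between genotypes and with age in WT hold none.

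The change between genotypes differed with age for Scn1a and Kcnh5. Xist was high in both genotypes at 3 months and in APP alone at 6 and 12 months. Age and this pattern therefore cannot be told apart in this comparison. The interaction test (limma's F test that the genotype change is equal at the 3 ages) called 3 of the 90, against 0.448% of all genes tested. The adjusted p by limma was 0.00650 for Scn1a and 0.0341 for Kcnh5. The change between APP and WT at 12 months less that at 3 months was -1.27 for Scn1a and -1.65 for Kcnh5 on the log2 scale. Leaving out 1 library at a time gave 1 to 5 calls, with Scn1a the 1 left in 6 of them, and without WT replicate 2 of 3 months none of the 3 was called and Kcna2 and Kcnip4 were. Without APP replicates 1 and 2 of 3 months Kcnh5 was still called, and Scn1a (adjusted p 0.0573) was not.

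With age in WT mice, 12 against 3 months, no channel gene was called by limma, against 0.0617% of all genes tested. The unadjusted p was under 0.05 for 7 of the 90, against 1487 of all 17840 genes tested. Scn1a went from 25.2 and 25.8 to 31.4, 33.2 and 34.1 (log2 change 0.36, adjusted p 0.492 by limma) without overlap. With replicate 2 of WT at 3 months left out Kcna2 and Kcnip4 were called, which then rested on the single library lowest in both.

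With age in APP mice, 8 of the 90 channel genes were called between 12 and 3 months, 6 lower and 2 higher, against 3.34% of all genes tested (1.49% lower and 1.86% higher). Scn1a fell by 0.91 on the log2 scale (adjusted p 0.00151 by limma) and Kcnh5 fell by 1.48 (0.00168), to levels that overlapped those of WT. The 2 K2P genes in the call were Kcnk3 and Kcnk1. Kcnk3 (TASK1, an acid-sensitive leak channel) went from 6.57, 6.90 and 5.43 to 3.23, 3.30 and 3.07, and fell by 0.79 on the log2 scale (adjusted p 0.0231). Kcnk1 (TWIK1) went from 42.5, 38.0 and 45.1 to 32.8, 30.5 and 33.2, the smallest change called, at -0.37 (adjusted p 0.0465). Its call held in 6 of 26 alternatives, and that of Kcnk3 in 17 of 25. In both, every 12-month library lay below every 3-month library.

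Calcium channels of the T type split in this comparison. Cacna1g went from 30.9, 22.9 and 14.7 to 9.78, 12.3 and 12.8 (log2 change -0.86, adjusted p 0.0355 by limma), and Cacna1h from 12.7, 18.7 and 13.4 to 25.1, 27.0 and 25.2 (0.77, adjusted p 0.0437). Kcnab3, a Kvbeta subunit, went from 11.8, 21.1 and 12.7 to 8.95, 5.91 and 7.38 (-0.92, adjusted p 0.0398). Kcng2, a silent Kv subunit, went from 3.95, 7.16 and 5.95 to 12.2, 10.9 and 12.5 (0.97, adjusted p 0.0284). For Cacna1h and Kcng2 the 12-month libraries lay all above those of 3 months, and for the other 2 all below. The 2 age groups did not overlap for 27 of the 90 channel genes, called or not. The share over all genes is not given for this comparison.

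**Figure D4:**
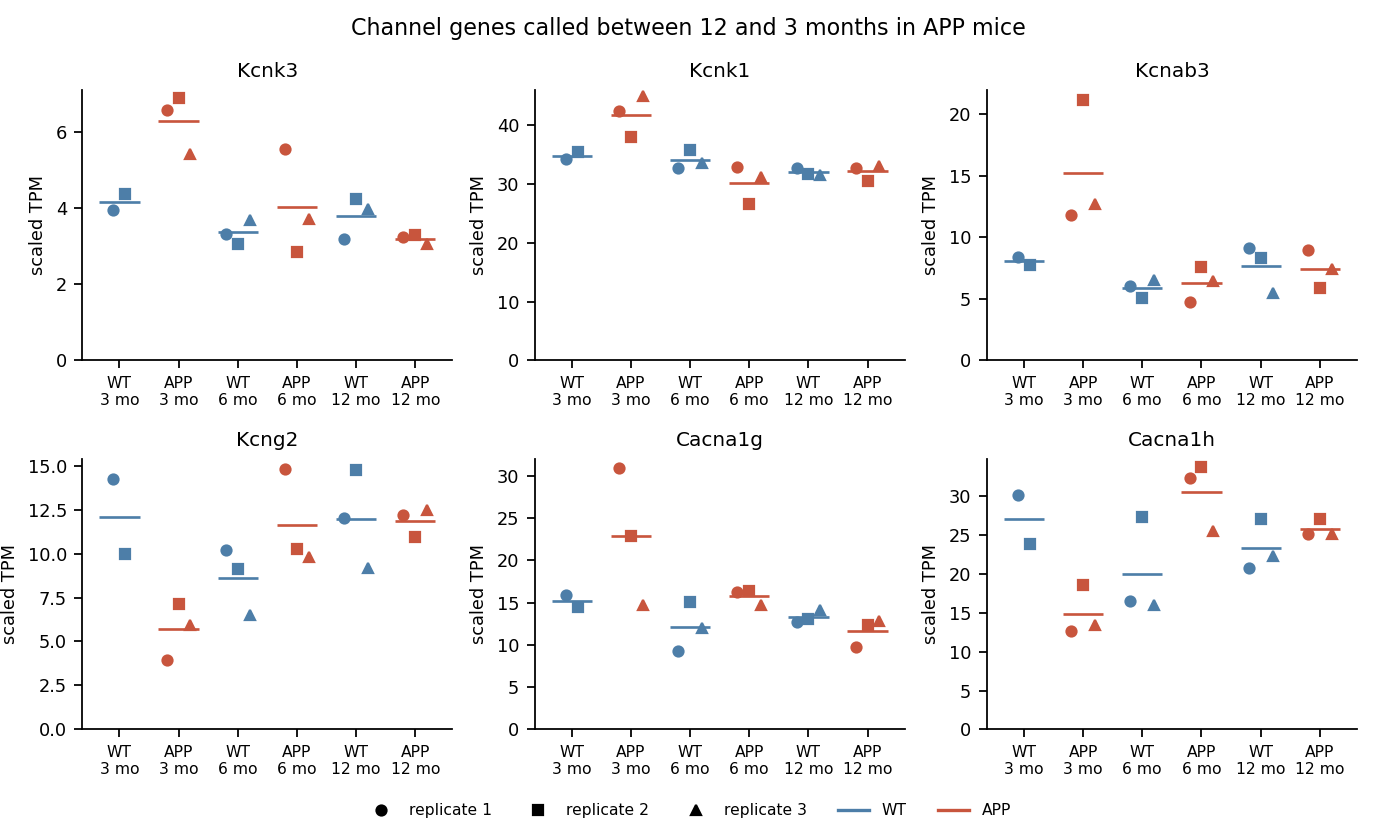
Scaled TPM (y axis, from 0) of Kcnk3, Kcnk1, Kcnab3, Kcng2, Cacna1g and Cacna1h in each of the 17 mouse libraries, by genotype and age (x axis). Points are libraries, shapes are replicate numbers and bars are group means. In each panel the 3 APP libraries of 12 months lie all on 1 side of the 3 APP libraries of 3 months. The same holds for 27 of the 90 channel genes.

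This comparison shares its 3-month libraries with the genotype comparison at that age, so the values of Scn1a and Kcnh5 in the 2 are not separate evidence. Marker lists moved with it in both directions. The 6 thalamus markers were all lower at 12 months (median log2 change -1.74, 2 called), with sums of 49.9 to 56.9 against 64.3 to 496. The 8 oligodendrocyte markers were all lower too (median -0.74, 5 called, sums of 1135 to 1269 against 1573 to 2658), and so were the 7 striatum markers (median -1.12, 2 called, sums of 38.0 to 51.0 against 60.1 to 199). With changes above 0 were the 5 CA1 markers (5 of 5 above 0, median 0.44, 1 called), the 6 dentate granule cell markers (6 of 6, 0.54, 1 called), 7 of 8 homeostatic microglia markers (0.50, 3 called), 9 of 10 choroid plexus markers (0.38, none called) and 4 of 6 excitatory neuron markers (0.63, none called). Of the 8 inhibitory neuron markers 4 were above 0 (median -0.18). Pvalb, the 1 of them called, was lower (log2 change -0.92, adjusted p 0.0171 by limma). Their part in the calls was not tested, beyond leaving libraries out. Without the 2 thalamus-rich libraries 1 APP library was left at 3 months, and fewer were called among all genes tested too. The part of those libraries in a lost call and that of the smaller group cannot be told apart. In that fit the log2 change was -1.49 for Kcnh5 and -1.17 for Kcnv1, a silent Kv subunit outside the 8, both called. Cacna1g had a change of -0.32 and Scn1a one of -0.65, neither called. The changes of Kcnk3 (-0.61), Kcnk1 (-0.48), Kcnab3 (-0.71), Cacna1h (0.90) and Kcng2 (0.89) kept their direction and were not called. Leaving out any 1 library of APP at 12 months left Kcnh5 and Scn1a as the 2 genes called, and 5 were called without replicate 2 of APP at 3 months and without replicate 2 of WT at 12 months.

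Genes whose products bind or modify these channels were taken from a list of 42, of which 39 were tested in mouse. None was called between genotypes at any age by limma, where 13, 7 and 1 had an unadjusted p under 0.05 at 3, 6 and 12 months. Of all 17840 genes tested, 2364, 3010 and 1246 had such a p. Between 12 and 3 months in APP mice 1 was called higher and 3 lower, where 3.34% of all genes were called. Cacng8, an AMPA receptor auxiliary subunit related to calcium channel gamma subunits, went from a mean of 54.6 to 92.7 scaled TPM (adjusted p 0.0437 by limma). Cacnb4, a calcium channel beta subunit, went from 73.1 to 46.6 (0.0220), Fgf12, which binds sodium channels, from 67.8 to 40.6 (0.0238), and Nfasc, an anchor of the axon initial segment, from 63.2 to 44.3 (0.0335). Without the 2 thalamus-rich libraries of 3 months none of these 4 was called by limma, with 1 APP library left at that age. Fewer were called among all genes tested too. The log2 changes were then 0.46 for Cacng8, -0.63 for Cacnb4, -0.69 for Fgf12 and -0.52 for Nfasc. The marker lists named above moved beside these 4 too, and their part was not tested.

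HT-22 cells held few of these genes. Of the 90, 12 had a mean TPM of at least 1 there (13.3%), against 74.0% of all genes with a mean of at least 1 in mouse, and 52 were listed at 0 in all 14 libraries (57.8%), against 15.3%. The other 26 lay in between. The 8 neuron markers summed to 13.8 to 18.7 in HT-22 cells and to 1753 to 2282 in mouse, with 3 of the 8 at 0 in every HT-22 library. Levels in the 2 systems were scaled separately and come from different material, so they are set side by side as a description.

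Calcium channel and auxiliary subunits were among the HT-22 genes. Cacna1a was the highest, at 4.89 to 16.7 scaled TPM over the 14 libraries. After it came the Kvbeta gene Kcnab2 (4.07 to 13.97), the imprinted noncoding RNA Kcnq1ot1 (5.35 to 8.30), Cacna1c (4.52 to 7.63), Cacna2d1 (2.93 to 6.79) and Kcnab1 (3.39 to 5.96). Kcnh2 (hERG, Kv11.1) was the single Kv pore subunit among the 12, at 1.35 to 5.21, beside Kcnk2 (0.978 to 6.29), Kcnj13 (0.616 to 3.66), Kcnip4 (1.33 to 2.62) and Kcnrg (0.169 to 1.81). Reads of Kcnj13 cannot be told apart from those of Gigyf2 on its other strand, which was at 37.8 to 70.1 in HT-22 cells, so the Kir level is uncertain. Coverage was low for some of these, down to 0.00708 for Kcnip4 and 0.0413 for Kcnab1, and what this says of their read support was not tested.

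**Figure D5:**
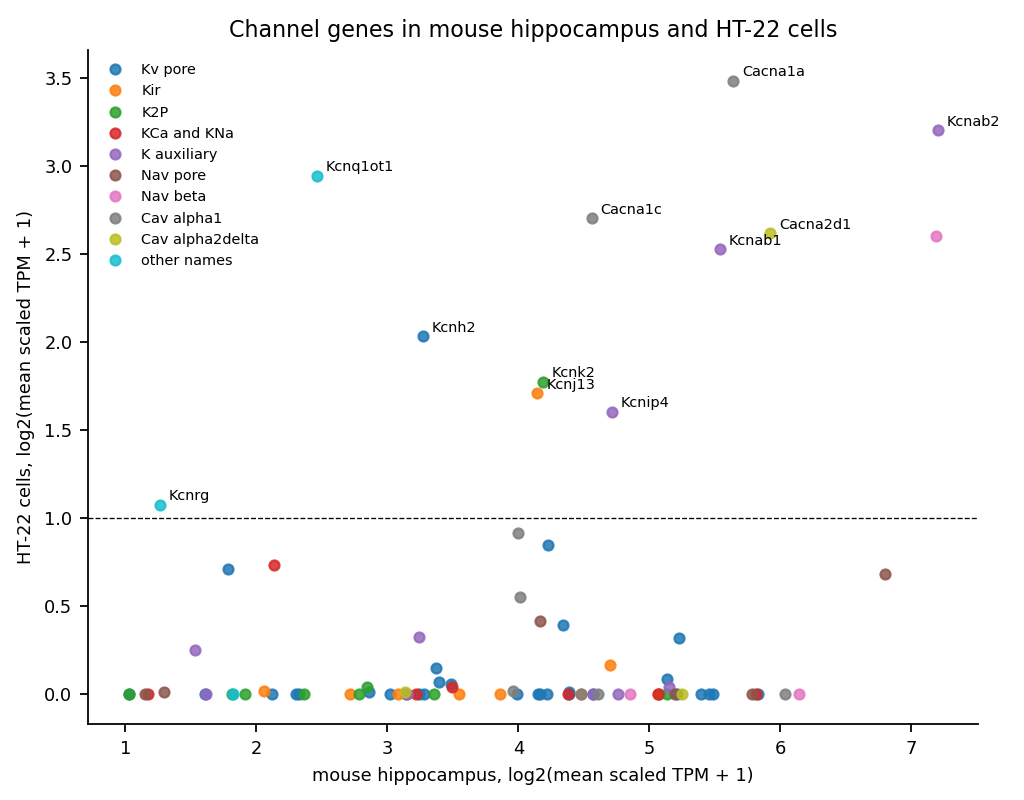
Mean scaled TPM of each of the 90 channel genes in mouse hippocampus (x axis) and HT-22 cells (y axis), both as log2(mean + 1) and scaled separately, coloured by family. The dashed line marks a mean of 1 in HT-22 cells, and genes above it are named where the text describes them. Most genes lie at or near 0 on the HT-22 axis whatever their level in mouse.

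Of the 53 genes with a mean of at least 10 in mouse, 29 were listed at 0 in all HT-22 libraries. Genes at 0 include Kcnq3, Kcna1, Kcna2, Kcnd2, Kcnc2, Kcnj3, Kcnj6, Kcnma1, Kcnn2, Kcnk1, Scn1a, Scn8a, Scn2b, Scn3b, Cacna1b, Cacna1e, Cacna1h, Cacna2d3 and Kcnh5. Scn2a, at a mean of 110 in mouse, was at 0.141 to 1.15 here, and Scn3a, Kcna4 and Cacna1g were above 0 in every HT-22 library with means below 1. No Nav pore subunit reached a mean of 1 in HT-22 cells. The pore subunit gene Kcnn4, outside the 90 because it was at 0 to 0.116 in mouse, was at 3.64 to 27.5 in HT-22 cells, and the K2P gene Kcnk7, at 0 to 0.358 in mouse, was at 0.291 to 5.03.

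No channel gene was called in any of the 4 HT-22 comparisons by limma, with 12 tested in each. Hsf1 itself had a mean of 48.1 scaled TPM with anti-Hsf1 and 53.8 with scramble, both with reverse peptide. With Ab42 these means were 47.2 and 61.7, and libraries overlapped in either pair. All genes gave 0, 0, 0 and 0.0231% called for Ab42 against reverse peptide under scramble and under anti-Hsf1 and for anti-Hsf1 against scramble with reverse peptide and with Ab42. The unadjusted p was under 0.05 once over these 4 comparisons, against 631 to 1555 of all 17291 genes tested in each. The 1 gene was Kcnh2 with Ab42 against reverse peptide under anti-Hsf1, at 5.21, 4.19 and 4.25 against 1.77, 1.76 and 1.97 without overlap (log2 change 0.97 ± 0.27 (SE), adjusted p 1.00 by limma). Under scramble Kcnh2 was at 3.19, 2.72, 3.93 and 3.04 with Ab42 and between 1.35 and 4.48 in the 4 libraries with the reverse peptide, with overlap. On TPM as deposited all genes shifted by a median of -0.52 and -0.62 in a pair of comparisons, in which 1 of the 12 was called for Ab42 under anti-Hsf1 (24.3% of all genes) and 5 for anti-Hsf1 with Ab42 (50.7%). In simulated data 51% of genes changed by a log2 of 1 and 87.5% of those changed by 2 were recovered for Ab42 against reverse peptide under scramble.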

How the data were processed

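Long RNA was sequenced from 17 mouse hippocampus samples and 14 HT-22 samples, and the short-RNA files of the series were not used here. Per the labels' protocols, long RNA was fragmented, depleted of ribosomal RNA and made into libraries with a NEBNext Ultra RNA kit. The submitters' processing notes name FastQC, cutadapt 1.18, BWA 0.7.17, HISAT2 2.1.0, bedtools 2.26.0 and StringTie 1.3.4d and the builds mm10 and GRCm38, without roles. Per the file headers, the authors deposited Coverage (a signal of mean read depth), FPKM and TPM for each gene and library. TPM was divided by median-of-ratios size factors within mouse (20713 genes above 0 in all libraries) or HT-22 (16878), and log2(scaled TPM + 1) was tested with limma 3.58.1 (R 4.3.3, trend and robust). Genes had a mean deposited TPM of at least 1 (17840 in mouse, 17291 in HT-22). The 6 mouse groups entered 1 fit and the 4 HT-22 groups another. A depth in reads is unknown for these units. Named were all called genes (at most 15 for each comparison), 36 genes on a list, the 10 highest in each system and 5 on either side of the minimum; others, such as Kcna6, Kcnip4 and Kcnj13, were named after their values were seen. Alternatives covered scaling, pseudocount, filter, array weights, replicate block, the samples in the fit and each library left out. Some genes that the rule would name are not reported here, though counts include them. The script for limma was tested on simulated data. The genes and lists were chosen with earlier results of these data known. Mice were separate animals per the design text, which calls the HT-22 samples biological replicates.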

Additional observations from a re-analysis of the deposited data

Results flagged for a closer look

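The change between APP and WT differed with age by limma's F test of the interaction, with adjusted p-values of 0.00650 for Scn1a and 0.0341 for Kcnh5. Xist was high in both genotypes at 3 months and in APP alone later, so age and this pattern cannot be told apart here. For both the difference lay in the 3 APP libraries of 3 months, which stood above all other mouse libraries.

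Kcnn4, the intermediate-conductance calcium-activated potassium channel, was at 17.3 scaled TPM in replicate 4 of HT-22 cells with reverse peptide and scramble LNA, where the other 3 libraries of the group held 3.64 to 5.48. Of 28 gene and group combinations of 4 libraries looked at, this was the 1 in which a library stood so far from the rest, and chance alone flags about 1 in 20. Under scramble with Ab42, Kcnn4 was at 27.5 in replicate 3 and 24.6 in replicate 4, against 4.53 and 3.94 in the others. The immediate-early gene Fos was at 39.4, 37.1 and 67.2 in these 3 libraries and at 2.56 to 6.81 in the other 11. Whether the 2 are linked was not tested.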

How the results depend on the processing

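The counts of channel genes called depended on scaling and on single libraries. For alternatives other than TPM as deposited, the replicate block included, no share of all genes is given beside the counts, here or above. Whether a shift in those counts is particular to channel genes therefore cannot be told. On TPM as deposited they were 70 at 6 months, 1 for WT 12 against 3 months, 4 for APP 12 against 3 months, 41 for the interaction (36 higher and 5 lower, against 1 and 2), 1 for Ab42 under anti-Hsf1 and 5 for anti-Hsf1 with Ab42, and 4 (2 higher and 2 lower) at 3 months; Scn1a and Kcnh5 at 6 months turned to 0.63 and 0.57 from values below 0. At 6 months 2 were called with quantile normalisation, 2 with a pseudocount of 0.1, 3 with a mean TPM of at least 5, 0 without the filter, 0 with array weights and 0 in a fit of that age alone, where 3 months gave 0 too. Without the filter, APP 12 against 3 months gave 3 and the interaction 1. With the 2 thalamus-rich libraries of 3 months left out, an alternative chosen after seeing the data, the counts were 1 at 3 months, 6 at 6 months and 2 for APP 12 against 3 months, and with the like library of 6 months left out as well 1, 3 and 2. Leaving out 1 library at a time gave 1 to 8 calls at 3 months, 0 to 6 at 6 months, 0 at 12 months, 0 to 2 for WT with age, 2 to 11 for APP with age, 1 to 5 for the interaction and 0 in HT-22 cells.

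With the replicate block, 4 were called at 3 months, 1 at 6 months (Kcna1 and not Cacna1c), 0 at 12 months, 5 for APP 12 against 3 months and 5 for the interaction, and none in HT-22 cells. The labels tie the numbers to no shared animal or day. Same-numbered mouse samples correlated by -0.06 to 0.12 in their deviations and HT-22 samples by -0.22 to 0.57, with 1 of 4 pairs under scramble at its best with its own number, so pairing did not hold for every pair. The cause of these shifts was not tested. Scn1a at 3 months was called in 24 of 27 alternatives and Kcnh5 in 24 of 27, and Cacna1c at 6 months in 10. No other change of a named gene turned direction while called.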
